A study of Heterocephalus glaber with 23 samples.

Results

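The livers of non-breeding female and male naked mole-rats were compared, with the functions of the liver that are not tied to the X chromosome as the subject. The naked mole-rat is a rodent of long life span whose colonies hold a single breeding pair while the remaining adults work. The series holds 23 liver RNA-seq libraries, and 11 of them came from non-breeders, 5 of females (2.4 to 4 years old) and 6 of males (2.7 to 4.1 years old), taken by the sex and status in the sample titles. The other 12 libraries, 6 of female breeders (3.3 to 3.7 years old) and 6 of male breeders (2.8 to 4.1 years old), shared the fit and served for comparison only. The labels give no treatment or genetic change for any animal. According to the study's methods the non-breeders were litter siblings of the breeders and had stayed as workers in their home colonies. Which animals shared a litter or a colony is not in the labels, and every library counts here as 1 animal.

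Liver is among the organs with the strongest sex differences in mice and rats. There, growth hormone is released in pulses in males and almost steadily in females, the pattern is read in hepatocytes by STAT5B, and its targets BCL6 and CUX2 hold down the genes of the other sex, among them cytochrome P450, sulfotransferase and steroid-converting enzymes. Gonadal steroids set this pattern. Naked mole-rat workers do not complete sexual maturation while a breeding pair is present, so the comparison asked how far such a liver differs between the sexes at all. Besides these hormone-directed genes, the liver functions described here are the plasma proteins, lipid transport, cholesterol and fatty acid synthesis, amino acid and glucose metabolism, bile acids and detoxification.

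The libraries held between 14541856 and 22969366 counts, with means of 17787300 ± 3123840 in females (SD, n = 5) and 17789700 ± 2154880 in males (SD, n = 6). Albumin (ALB), the main plasma protein of hepatocytes, took 7.42% to 14.1% of the counts in females and 7.86% to 14.8% in males, so the defining product of hepatocytes was abundant in every library. No non-breeder was a copy of another of the same sex, since over the 25 such pairs the smallest ratio of chi-square to its degrees of freedom was 30.8. Male non-breeder 3 stood apart. On the first principal component of the 11 livers, with 36.9% of the variance, it lay at 100.6 and the remaining 10 libraries between -17.2 and -4.14. In that library MTRNR2L4, a humanin-like transcript resembling mitochondrial ribosomal RNA, took 11.9% of the counts, against 2.05% to 4.25% in the females and 3.55% to 4.17% in the other males. Without that library, the mean correlation of log2 CPM (counts scaled to the library's effective size) across genes was 0.971 between females and males, 0.965 between females and 0.974 between males (25, 10 and 10 pairs). The value between the sexes thus lay between those within them.

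After removal of genes with low counts, 12306 genes were tested with the quasi-likelihood test of edgeR, and 4 of them (0.0325%) passed an adjusted p of 0.05, all 4 lower in females. The public reference annotation of this species carries no chromosome names. Its rows follow the assembly, however, and 16 runs of neighbouring genes held genes that are X-linked in human. The 349 tested genes of these X neighbourhoods are taken here as likely X-linked, and the other 11957 genes stand for the autosomes (10935 of the 12306 tested symbols were found in the annotation). All 4 genes past the threshold were in X neighbourhoods (1.15% of their genes, of which 6.30% passed an unadjusted p of 0.05 and 49.6% were below 0), and 0 of the 11957 genes outside them passed (edgeR). The 4 genes were themselves on the lists of human X-linked genes that defined the neighbourhoods. All 4 were on the list of such genes with a Y copy or escape from inactivation (4 of 25 tested). The other list, of liver function genes X-linked in human, had 0 of 48 past the threshold. These lists were chosen with earlier results of these data known, so the place of the 4 genes was fixed beforehand and tests nothing. At an unadjusted p of 0.05, 612 genes outside X neighbourhoods passed (5.12%), 380 lower (3.18%) and 232 higher (1.94%) in females. DESeq2 called 1 gene outside X neighbourhoods and limma voom called 0.

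The 4 genes past the threshold separated the sexes completely. KIF4A, a chromosome-associated kinesin, had 0.127, 0.438, 0.044, 0.385 and 0.159 CPM in the females, against 30.1, 21.1, 15.9, 21.7, 32.4 and 30.2 CPM in the males. RAB9A, a small GTPase of transport from endosomes to the Golgi, had 15.9, 14.6, 11.8, 16.6 and 15 CPM in the females, against 33.8, 38.1, 33.2, 37.7, 41.3 and 38.3 CPM in the males. EIF2S3, a subunit of translation initiation factor eIF2, had 75.9, 56.8, 62.9, 67.9 and 86.9 CPM in the females, against 144, 133, 103, 157, 158 and 162 CPM in the males. PNPLA4, a lipid hydrolase, had 9.86, 11.3, 10.7, 9.19 and 9.57 CPM in the females, against 14, 16.8, 15.9, 16.9, 14.7 and 17.1 CPM in the males. For none of the 4 did any female reach the lowest male. The log2 fold changes were -6.81 ± 0.43 for KIF4A, -1.33 ± 0.14 for RAB9A and -1.03 ± 0.13 for EIF2S3 (SE), with edgeR adjusted p-values of 8.14e-10, 8.89e-06 and 0.000178 in that order. In a fit of the 11 non-breeder libraries alone 2 of the 4 no longer passed, with a log2 fold change of EIF2S3 of -1.03 (edgeR adjusted p = 0.062) and a log2 fold change of PNPLA4 of -0.65 (edgeR adjusted p = 0.313). The KIF4A values of the females rested on 1 to 7 counts a library. The smallest difference was that of PNPLA4, at -0.65 ± 0.10 on the log2 scale (SE, adjusted p = 0.0056 by edgeR), and PNPLA4 was the only one of the 4 with a role in lipid handling. Of all tested genes, 35 had every female on one side of every male (0.284%). Outside X neighbourhoods 26 did (0.217%), while 9 genes in X neighbourhoods did (2.58%), and these 9 include the 4 genes that helped to define the neighbourhoods. Among the 26, the only gene of the circadian list was NR1D1, described with the clock genes.

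**Figure D1:**
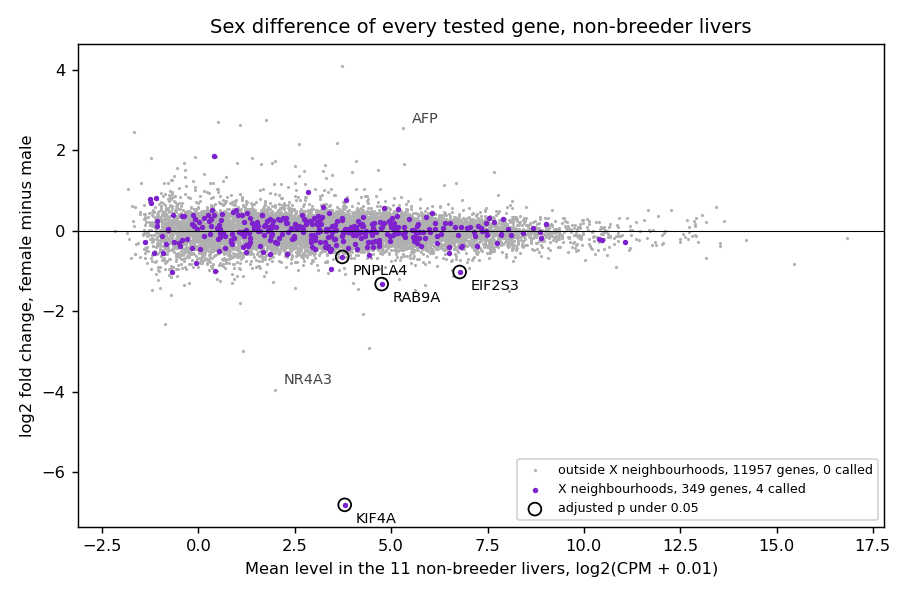
Log2 fold change between female and male non-breeders (female minus male, y axis) against the mean level of each gene in the 11 livers (x axis, log2 of CPM plus 0.01). Grey points are the 11957 genes outside X neighbourhoods, purple points the 349 genes in them, and black rings the 4 genes that passed an adjusted p of 0.05, all of them purple and below 0.

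How large a difference the values of a single gene leave room for is given by its interval. The intervals are not adjusted for the number of genes, so a difference outside 0 could still miss the adjusted threshold. For 9692 of the 11957 genes outside X neighbourhoods (81.1%), the 95% interval of the female to male difference lay within -1 and 1 on the log2 scale, so a 2-fold difference in either direction was outside it, and for 3894 (32.6%) it lay within -0.5 and 0.5. The median absolute log2 fold change over all tested genes was 0.16, the median standard error 0.21 and the median SD between livers of the same sex 0.36. The genes on the lists of liver functions, 526 tested of 568, had 0 members past the threshold (edgeR) and 43 at an unadjusted p of 0.05 (8.17%). Their median log2 fold change was -0.04, with 302 of 526 below 0, against a median of 0.00 over all genes and 49.5% below 0. Of the 476 liver genes with a mean of at least 10 CPM, 383 (80.5%) had intervals within -1 and 1. Statements on single genes below are therefore values with their errors. List counts at an unadjusted p of 0.05 stand beside 3.18% lower and 1.94% higher of all genes outside X neighbourhoods. No gene named from here on passed the adjusted threshold, and the adjusted p was 0.755 for APOC4 and at least 0.856 for the others.

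The gene of smallest p outside X neighbourhoods was APOC4, an apolipoprotein of triglyceride-rich particles. It had 90.1, 64.4, 71.2, 100.1 and 70.7 CPM in the females, against 113, 81.2, 166, 108, 126 and 142 CPM in the males, and 5 of the 6 males were above every female. The log2 fold change was -0.63 ± 0.16 (SE, unadjusted p = 0.000491). The breeders, which share no library with the non-breeders, had 77.1 to 109 CPM (median 92.5) in the 6 females and 111 to 144 CPM (median 132) in the 6 males, and a log2 fold change of -0.48 ± 0.15 (SE), with an unadjusted p of 0.00346 and an edgeR adjusted p of 0.588. In breeders the sexes did not overlap for APOC4, and the share of all genes without overlap in breeders was not counted. Next in order of p among the lower genes with a liver function stood TTC36, a tetratricopeptide protein abundant in liver and kidney, INSIG1, RBP5 and TM7SF2. TTC36 had 54.6, 53.5, 51.1, 62.2 and 49.5 CPM in the females, against 58.6, 70.4, 72.2, 89.7, 94.1 and 91.3 CPM in the males, with overlap only at the lowest male. RBP5, a cytosolic retinol-binding protein, had 172, 132, 133, 196 and 165 CPM in the females, against 189.6, 176, 318, 208, 233 and 217 CPM in the males, and a log2 fold change of -0.49 ± 0.14 in non-breeders and -0.32 in breeders (SE 0.13, unadjusted p = 0.0248). Its sexes overlapped in both groups. TUBD1, a delta tubulin, was also among the 8 lower genes of smallest p, at -0.58 ± 0.17.

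Among the 8 higher genes of smallest p, PITPNA, a phosphatidylinositol transfer protein, had the smallest standard error. It had 69.5, 63.4, 69.2, 70.9 and 70.7 CPM in the females, against 54.5, 57.7, 45.5, 48.3, 57.4 and 62 CPM in the males, a log2 fold change of 0.34 ± 0.09 (SE, unadjusted p = 0.000977) in non-breeders and 0.06 in breeders. Every female was above every male. The kinesin KIF21B had 0.763, 0.688, 0.704, 0.899 and 1.06 CPM in the females, against 0.440, 0.517, 0.0642, 0.583, 0.356 and 0.139 CPM in the males, again without overlap, and a log2 fold change of 1.18 ± 0.36. GALNT10, which starts O-glycosylation, was at 0.47 ± 0.14 and SPATA18, which takes part in mitochondrial quality control, at 0.83 ± 0.24. SPARCL1, a matrix protein of vessels, had 8.59, 83.6, 26.8, 11.6 and 8.04 CPM in the females, against 6.31, 7.39, 14.8, 7.70, 5.76 and 7.81 CPM in the males (1.74 ± 0.54), and TMEM200A, a membrane protein, had 1.34, 15.1, 13.3, 0.450 and 0.952 CPM in the females, against 0.978, 1.03, 0.642, 0.641, 0.640 and 1.60 CPM in the males (2.75 ± 0.84). Both overlapped between the sexes, with female non-breeders 2 and 3 at the top, and without female non-breeder 2 SPARCL1 was at 0.74. PLIN2 and AFP, which complete the 8, are described with their functions.

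The apolipoprotein list as a whole had no such shift. Of 29 tested genes, 15 were below 0 (median log2 fold change 0.00), 5 were lower and 1 higher at an unadjusted p of 0.05, and without male non-breeder 3 these were 1 and 2. APOC1, which acts on lipoprotein remodelling enzymes, had 8124, 5664, 7039, 8194 and 5597 CPM in the females, against 7472, 6846, 22647, 8931, 9556 and 11208 CPM in the males. The highest value belonged to male non-breeder 3, and without it the log2 fold change was -0.35 in place of -0.68. APOC2, the activator of lipoprotein lipase, was at -0.43 ± 0.16 with all libraries and -0.28 without that library, APOM, the carrier of sphingosine-1-phosphate on HDL, at -0.65 ± 0.30 and -0.18, and APOE at -0.37 ± 0.18 and -0.28 (log2 fold change, SE for all libraries). Without that library APOC4 was at -0.53, farther from 0 than these 4 genes. Of the 14 genes above 0, APOA4 and APOA5 had the largest values. APOA5 was at 1.18 (edgeR unadjusted p = 0.0884). APOA4 is an apolipoprotein of chylomicrons and HDL and is also on the list of genes sex-biased in rodent liver. It had 489, 406, 40.8, 292 and 324 CPM in the females, against 53.6, 153, 48.6, 24.8, 194 and 206 CPM in the males. 4 of 5 females were above every male and female non-breeder 3 was below 5 of the 6 males, and the log2 fold change was 1.45 ± 0.55 (SE, unadjusted p = 0.0142). In breeders it was -0.57, and the difference between these differences had an unadjusted p of 0.0137 and an edgeR adjusted p of 1.

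Cholesterol synthesis was the metabolic list with the largest shift. Of its 25 genes, all of them tested, 20 were below 0, against 49.5% of all genes. The median log2 fold change was -0.29, against 0.00 over all genes. At an unadjusted p of 0.05, 6 were lower and 0 higher, against 3.18% and 1.94% of all genes outside X neighbourhoods. Without male non-breeder 3, 24 of 25 were below 0, the median was -0.43 and again 6 were lower, against 198 of 11957 genes outside X neighbourhoods. Without male non-breeder 2 the median was -0.13. The pathway is driven by SREBP2, which INSIG1 and SCAP hold in the endoplasmic reticulum when sterols are plentiful, and INSIG1 is itself a target of the SREBPs. INSIG1 had 802, 959.5, 1133, 1172 and 825 CPM in the females, against 1436, 1401, 1059.8, 1660.2, 1718 and 1535 CPM in the males, a log2 fold change of -0.59 ± 0.16 (SE, unadjusted p = 0.00135). Every male but male non-breeder 3 was above every female. FDPS, which makes farnesyl pyrophosphate, had 42.9, 27.5, 31.8, 32.5 and 44.3 CPM in the females, against 68.7, 64.2, 36.3, 38.7, 57.4 and 77.6 CPM in the males. TM7SF2, a sterol reductase late in the pathway, had 124, 63.1, 66.8, 127 and 96.4 CPM in the females, against 155, 151, 116, 129, 139 and 235 CPM in the males. Both overlapped between the sexes, FDPS through male non-breeders 3 and 4 and TM7SF2 through male non-breeder 3 alone. PMVK was at -0.30 ± 0.13 and LSS, the lanosterol synthase, at -0.41 ± 0.19. SQLE, the squalene epoxidase, was at -0.29 ± 0.30 and SREBF2, which encodes SREBP2, at -0.26 ± 0.18, but without male non-breeder 2 at -0.07 and -0.15. The mean log2 CPM of the 25 genes was 6.03 to 6.51 in the females, 6.47 to 7.04 in 5 males and 5.29 in male non-breeder 3, so the library that stood apart lay below every female. In breeders 20 of 25 genes were below 0, with a median of -0.24.

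**Figure D2:**
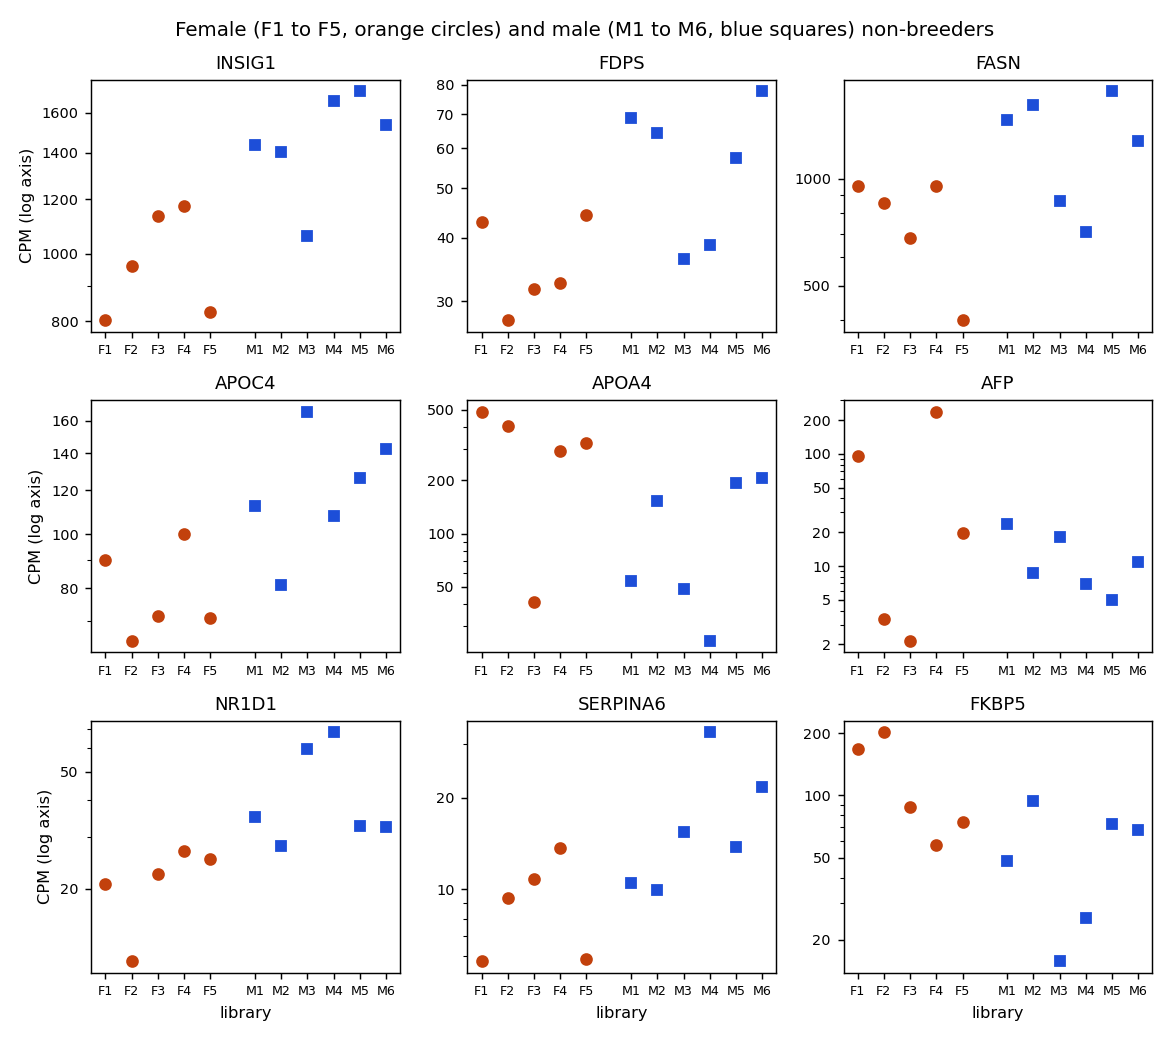
Levels of 9 genes of lipid metabolism, plasma proteins, clock and steroid response in each non-breeder liver, in CPM on a log axis, 1 point per library, females F1 to F5 on the left (orange circles) and males M1 to M6 on the right (blue squares). Only NR1D1 separates the sexes completely. For INSIG1 the exception is M3, for APOC4 it is M2, and for APOA4 it is F3.

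The genes of fatty acid and triglyceride synthesis had a median of -0.05 (21 of 30 below 0), with 1 gene lower and 2 higher at an unadjusted p of 0.05, and 4 and 2 without male non-breeder 3. FASN, the fatty acid synthase, had 953, 852, 681, 953 and 399 CPM in the females, against 1461, 1608, 864, 708, 1761 and 1275 CPM in the males, a log2 fold change of -0.74 ± 0.32, with male non-breeders 3 and 4 inside the female range. SCD, which introduces the double bond of oleate, was at -0.90 ± 0.47 with an interval of -1.87 to 0.07. Against this direction stood 2 genes of lipid droplets, PLIN2 and CIDEC. Other droplet genes of the list lay nearer 0, PLIN4 at 0.17, PLIN5 at 0.16 and CIDEB at -0.04. PLIN2, the main perilipin of hepatocytes, had 19.1, 66.4, 34.3, 17.3 and 24.1 CPM in the females, against 15.9, 18.2, 18.4, 17.1, 14 and 22.9 CPM in the males, a log2 fold change of 0.86 ± 0.24 (SE, unadjusted p = 0.00177). Female non-breeders 2 and 3 held the highest values and the lowest females lay among the males, and without female non-breeder 2 PLIN2 was at 0.42. CIDEC, a droplet fusion protein, had 1.08, 2.88, 2.81, 0.771 and 0.688 CPM in the females, against 0.391, 0.414, 1.54, 0.466, 0.0712 and 0.836 CPM in the males, low levels with overlap. Oxidation of fatty acids showed little: in mitochondria 15 of 25 genes were above 0 with a median of 0.05, and in peroxisomes 16 of 33 with a median of 0.00. ETFA, which passes electrons from the acyl-CoA dehydrogenases on, was at -0.30 ± 0.14 and ECI1, an isomerase of unsaturated fatty acids, at -0.30 ± 0.14, and without male non-breeder 3 at -0.24 and -0.22.

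Secreted plasma proteins had medians near 0. Carriers and protease inhibitors had a median of -0.07 (17 of 30 below 0), complement components -0.02 (16 of 29) and coagulation factors -0.05 (13 of 23), and the intervals lay within -1 and 1 for 23, 25 and 22 of these genes. ALB itself was at -0.18 ± 0.21, with an interval of -0.60 to 0.25. AHSG, the inhibitor of ectopic calcification fetuin-A, was at -0.31 ± 0.13 and coagulation factor F10 at -0.34 ± 0.16, or -0.20 without male non-breeder 3. SERPINA6, the corticosteroid-binding globulin of plasma, had 5.79, 9.38, 10.8, 13.7 and 5.87 CPM in the females, against 10.5, 9.93, 15.5, 32.9, 13.8 and 21.7 CPM in the males, and a log2 fold change of -0.93 ± 0.37. 4 of 6 males were above every female. AFP, the fetal counterpart of albumin, gave the largest value of the list at 2.55 ± 0.77 (SE, unadjusted p = 0.00302), but it rested on 2 animals. It had 95.7, 3.38, 2.15, 238 and 19.6 CPM in the females, against 23.5, 8.64, 18.2, 6.88, 4.98 and 10.9 CPM in the males. Female non-breeders 1 and 4 were above every male, and female non-breeders 2 and 3 were below every male. Without female non-breeder 4 AFP was at 1.30. In breeders AFP was at -0.42, with 3.90 to 17.4 CPM in females and 4.88 to 16.2 CPM in males.

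Amino acid catabolism had a median just below 0. Of 70 tested genes of the urea cycle and amino acid breakdown, 41 were below 0 (median -0.05), 6 were lower and 0 higher at an unadjusted p of 0.05, and 61 had intervals within -1 and 1. Without male non-breeder 3 the median was -0.12 and 5 were lower. ASS1, the urea cycle enzyme that joins citrulline and aspartate, had 1985, 1602, 1452, 2448 and 2011 CPM in the females, against 2189, 2087, 2714, 1936, 3581 and 3258 CPM in the males. CPS1, the first step of the cycle, was at 0.33 ± 0.41, with 304 CPM in male non-breeder 3 and 1824 CPM or more in every other liver, and without that library at 0.10. The kynurenine pathway of tryptophan gave 2 of the 6, ACMSD at -0.48 ± 0.18 and KMO at -0.54 ± 0.23. ACMSD, which diverts the pathway from NAD synthesis, had 1116, 799.6, 1054, 1389.6 and 1108 CPM in the females, against 1128, 1014, 1942, 1766, 1491 and 1832 CPM in the males. KMO had 168, 188, 427, 196, 179 and 193 CPM in the males, the highest in male non-breeder 3, and was at -0.25 without that library. AGXT, the peroxisomal enzyme that clears glyoxylate, was at -0.44 ± 0.19. The sexes overlapped for each of these genes.

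The list of glycolysis, gluconeogenesis, glycogen and fructose had a median of -0.05 (30 of 49 below 0). LDHA, the lactate dehydrogenase subunit typical of glycolysing tissue, had 279, 309, 239.6, 203 and 216 CPM in the females, against 201, 239.5, 127, 149, 141 and 214 CPM in the males, a log2 fold change of 0.48 ± 0.19. IRS2, the adaptor of the insulin receptor in liver, was at -1.12 ± 0.43. The females were close together, with 62.2, 68.1, 51.4, 62.4 and 51.3 CPM, and the males were not, with 141, 219.6, 35.8, 54.8, 272 and 44.3 CPM, 3 above and 3 within or below the female range. The 2 orphan nuclear receptors of the immediate early list had the same males at the top. NR4A3 had 1.02, 0.63, 0.132, 0.193 and 0.264 CPM in the females, against 2.45, 6.98, 0.642, 0.233, 30.7 and 0.0697 CPM in the males (log2 fold change -3.95 ± 1.03), and NR4A2 had 12.8, 2.63, 4.62, 1.93 and 1.27 CPM in the females, against 38.5, 57.9, 1.54, 0.758, 109 and 3.55 CPM in the males (-2.92 ± 1.01). Male non-breeders 1, 2 and 5 held the 3 highest values of IRS2, NR4A2 and NR4A3, and the other 3 males lay among the females or below them. Without male non-breeder 5 NR4A3 was at -2.26.

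Bile acid genes had a median of -0.03 (17 of 25 below 0). CYP7A1, the rate-limiting enzyme of bile acid synthesis, had 185, 2.19, 83.2, 131 and 139.9 CPM in the females, against 207, 101, 41.6, 88.9, 93.8 and 157 CPM in the males, and a log2 fold change of -0.09 ± 0.58. The spread came from female non-breeder 2, at 2.19 CPM. AKR1C4, a ketosteroid reductase that also acts on bile acid intermediates, had 726, 467, 670.0, 983 and 690.1 CPM in the females, against 777, 876, 875, 917, 1049.5 and 1138 CPM in the males, a log2 fold change of -0.41 ± 0.15 in non-breeders and -0.32 in breeders. Cytochrome P450 and other phase I enzymes had a median of -0.03 and phase II enzymes of -0.01, and 1 of 38 was higher and 2 of 35 were lower at an unadjusted p of 0.05. The gene that was higher was FMO2. FMO2, a flavin monooxygenase, had 4.45, 12.4, 15.7, 7 and 6.08 CPM in the females, against 4.65, 6.67, 2.57, 5.89, 4.77 and 6.06 CPM in the males, and its log2 fold change of 0.84 ± 0.32 was 0.55 without female non-breeder 3. CYP26A1, which clears retinoic acid, had 2.67, 2.25, 3.47, 29.9 and 6.45 CPM in the females, against 8.61, 28.8, 39, 13.6, 29.2 and 12.4 CPM in the males. For CYP26A1 4 of 5 females were below every male, and female non-breeder 4 was above 5 of the 6 males (log2 fold change -1.30 ± 0.64, interval -2.62 to 0.02), and without that female CYP26A1 was at -2.55. The microsomal glutathione transferases MGST2 and MGST3 were at -0.63 ± 0.24 and -0.33 ± 0.15, and at -0.31 and -0.18 without male non-breeder 3.

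Genes that are sex-biased in mouse or rat liver were then taken as a list of their own, since they carry the growth hormone signature of liver sex in those species. Of 64 such genes, 38 were tested, and 0 of them passed the threshold (edgeR). At an unadjusted p of 0.05, 2 were lower and 3 higher, beside 3.18% and 1.94% of all genes outside X neighbourhoods. Of the 38, 19 lay on each side of 0, with a median of 0.02. The list joins genes higher in males with genes higher in females of those species. This split therefore cannot show whether the rodent pattern was present. BCL6, the repressor that is higher in males of the mouse, had 60.4, 47.6, 40.2, 53.4 and 55.6 CPM in the females, against 60.3, 60.2, 44.4, 32, 63 and 65.7 CPM in the males (log2 fold change -0.08 ± 0.17, interval -0.43 to 0.27). CUX2, its counterpart that is higher in female mice, was at -0.28 ± 0.47 (interval -1.25 to 0.70), and at -0.01 without female non-breeder 2. CYP7B1, a steroid hydroxylase higher in male mice, had 201, 227, 259, 232 and 361 CPM in the females, against 302, 219.8, 228, 224, 304 and 289 CPM in the males (log2 fold change -0.03 ± 0.18, interval -0.41 to 0.35). SULT2A1, a sulfotransferase of bile acids and steroids that is higher in female mice and rats, was at -0.02 ± 0.22 (interval -0.48 to 0.43). For BCL6, CYP7B1 and SULT2A1 the sexes overlapped over nearly the whole range and the intervals lay within -0.5 and 0.5. CYP17A1 (interval -0.42 to 1.46) and the iron hormone HAMP, higher in female mice (-1.07 to 1.19), were too variable for such a limit. SRD5A1, a steroid 5-alpha-reductase, was at -0.37 ± 0.15. In all, 19 of the 38 intervals lay within -1 and 1, against 81.0% of all tested genes, so this list was resolved less well than the rest.

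**Figure D3:**
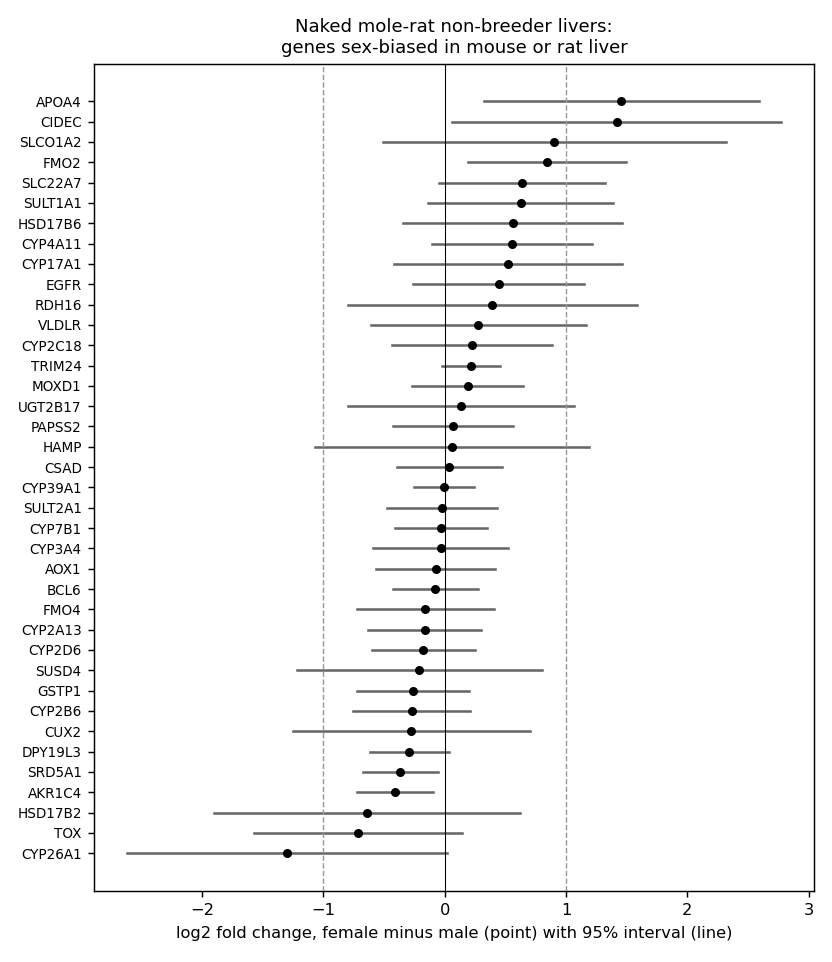
Log2 fold change between female and male non-breeders (points) with its 95% interval (lines) for the 38 tested genes that are sex-biased in mouse or rat liver, ordered by value. Dashed lines mark a 2-fold difference. The points lie 19 to each side of 0, and the intervals of 5 genes leave out 0. The list holds genes of male and of female bias in those species.

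Within the growth hormone and IGF axis, 13 of 21 genes were below 0 (median -0.05). IGF1, the circulating growth factor that growth hormone induces in liver, had 289, 523, 612, 343 and 419.9 CPM in the females, against 449, 823, 242, 359, 294 and 311 CPM in the males (log2 fold change 0.08 ± 0.25, interval -0.44 to 0.61). IGF2 was at -0.35 ± 0.17, or -0.22 without male non-breeder 3, and STAT3 at 0.33 ± 0.17. Among steroid receptors and converting enzymes, 11 of 17 were below 0 (median -0.04). ESR1, the estrogen receptor of hepatocytes, was at 1.48 ± 0.76 with an interval of -0.10 to 3.05, and its values are described with the genes that varied within the sexes. FKBP5, a co-chaperone that glucocorticoids induce, had 168, 202, 88.2, 57.7 and 74.4 CPM in the females, against 47.9, 93.6, 15.7, 25.4, 72.7 and 67.7 CPM in the males, a log2 fold change of 1.13 ± 0.40 (SE, unadjusted p = 0.00997) in non-breeders and 0.19 in breeders. Female non-breeders 1 and 2 were above every male.

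The clock genes had a median of -0.06 (10 of 16 below 0). NR1D1, the nuclear receptor REV-ERB alpha that represses the clock activator BMAL1 and lipid genes, had 20.8, 11.3, 22.5, 26.9 and 25.2 CPM in the females, against 35, 28, 59.7, 68.2, 32.6 and 32.3 CPM in the males, a log2 fold change of -0.997 ± 0.40 (SE, unadjusted p = 0.0201). All females were below all males. In breeders it was -0.93, with 7.99 to 56.0 CPM in females and 28.5 to 71.0 CPM in males. PER1 had 158, 133, 86.1, 61.6 and 72.2 CPM in the females, against 214, 205, 94.2, 103, 309 and 83.3 CPM in the males (-0.72 ± 0.33), and DBP, a clock output factor, was at -0.40 ± 0.39. Without male non-breeder 5 PER1 was at -0.45, and without male non-breeder 4 DBP was at -0.02.

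Among the lists of general cell functions, 2 had shifts whose size, but not whose direction, rested largely on 1 library. Cytosolic ribosomal proteins had a median of -0.30, with 73 of 74 genes below 0 and 19 lower at an unadjusted p of 0.05. Without male non-breeder 3 the median was -0.16, 73 were still below 0 and 1 was lower. FAU, which encodes a ribosomal protein fused to a ubiquitin-like one, had 699.9, 647, 550.0, 668 and 557 CPM in the females, against 617, 615, 1599, 899, 835 and 849 CPM in the males, the highest in male non-breeder 3. Nuclear genes of the respiratory chain and ATP synthase had a median of -0.27 (61 of 72 below 0, 18 lower), and without male non-breeder 3 of -0.10 (64 below 0, 3 lower). In breeders the ribosomal median was -0.17 (72 of 74 below 0) and the respiratory chain median -0.17 (60 of 72 below 0). UQCRH, a hinge subunit of complex III, was at -0.71 ± 0.26 and at -0.60 without that library, and NDUFS8 of complex I at -0.37 ± 0.12 and -0.33. Outside X neighbourhoods as a whole, leaving out male non-breeder 3 took the number of genes lower at an unadjusted p of 0.05 to 198, against 380 with it, and of higher genes to 164, against 232. Proteasome subunits moved the other way by less, with a median of 0.12 (29 of 35 above 0), and of 0.13 without the library. PSMD11, a subunit of the regulatory particle, had 161, 142, 152, 119.6 and 151 CPM in the females, against 121, 118, 119.7, 108, 126 and 122 CPM in the males, with 4 of 5 females above every male. Endoplasmic reticulum chaperones had a median of 0.14 (25 of 36 above 0), and of 0.05 without female non-breeder 2. Interferon-stimulated genes had a median of 0.15 (20 of 28 above 0), of 0.30 without male non-breeder 3, of -0.06 without female non-breeder 3 and of 0.43 in breeders. Immediate early genes turned sign, with a median of -0.12 (15 of 25 below 0) and of 0.06 without male non-breeder 3, but of -0.67 without female non-breeder 4. So did complement components (-0.02 and 0.06) and the rodent sex-biased genes (0.02 and -0.03), while bile acid genes (-0.03 and -0.12), apolipoproteins (0.00 and -0.08) and the growth hormone and IGF axis (-0.05 and -0.12) lay lower without it. Over all 11 libraries left out in turn, the medians of 12 of the 25 function lists took both signs and those of 13 kept their sign. Iron handling (median 0.09) and hepatocyte transcription factors (-0.03) had 1 and 0 genes at an unadjusted p of 0.05, and the 1 was SLC11A2, an iron importer, at 0.54 ± 0.23.

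**Figure D4:**
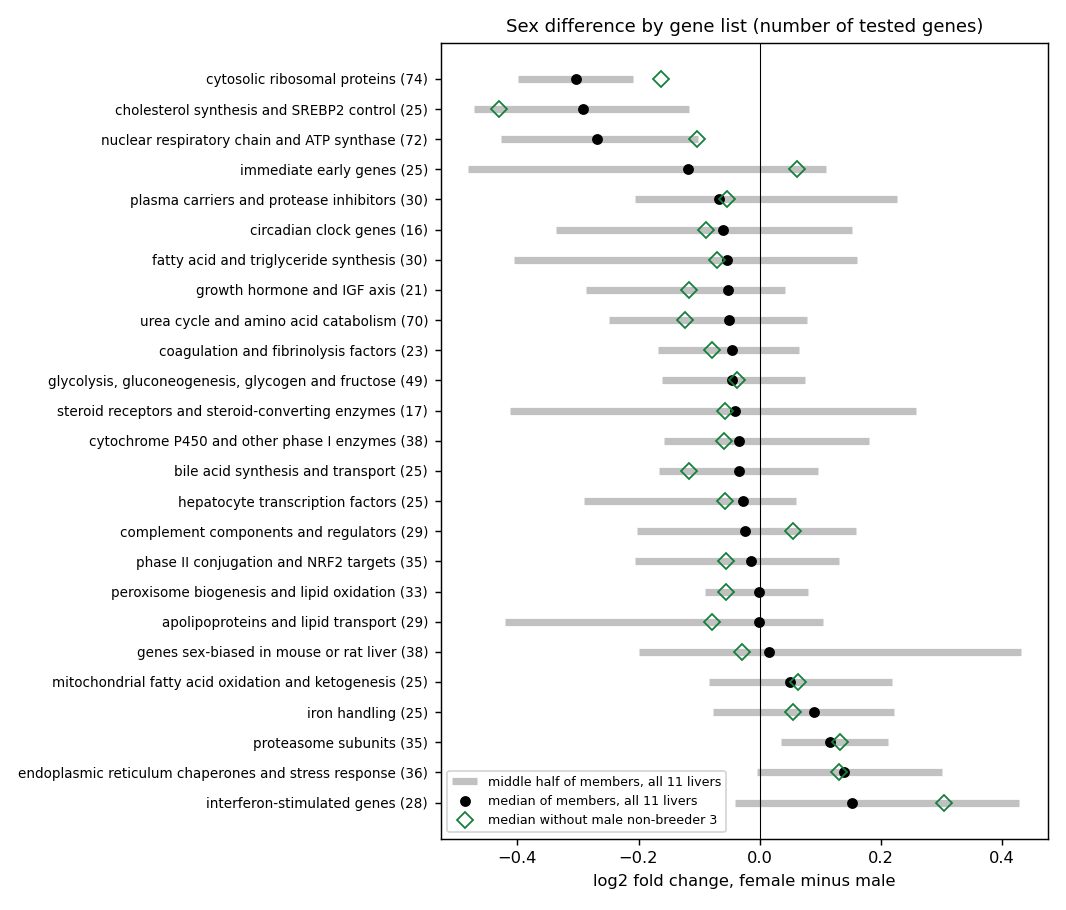
Log2 fold change between female and male non-breeders by gene list (y axis, with the number of tested genes). Black points are medians over the members with all 11 livers, grey bars span the interquartile range of the members, and green diamonds are medians without male non-breeder 3. Ribosomal and respiratory chain medians lie nearer 0 without that library, and the cholesterol synthesis median lies farther from 0.

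Markers of other cell types were checked beside these results. Of the lists of Kupffer cells, lymphocytes, stellate cells, endothelial cells, red cells and dividing cells, none held a gene past the threshold (edgeR), and between 0 and 1 of their genes passed an unadjusted p of 0.05. In bulk liver, fewer cells of a type and less RNA per cell cannot be told apart. The summed level of 14 neutrophil markers was 59.4 to 203 CPM in the females and 48.2 to 316 CPM in the males, and male non-breeders 3 and 6 had the highest mean log2 levels, 2.74 and 3.00, against 0.53 to 2.03 in the females. The 14 cholangiocyte markers summed to 233 to 299 CPM in the females and 239 to 411 CPM in the males, with a mean log2 level of 2.96 in male non-breeder 3, against 1.72 to 2.19 in the females and 1.43 to 1.91 in the other males. Their part in the lower ribosomal and respiratory chain levels of the females was not tested. 9 skeletal muscle markers summed to 23.4 to 35.2 CPM in the females and 24.7 to 44.1 CPM in the males.

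The same genes were also compared in breeders, which were other animals but not an independent set. Of the 11957 genes outside X neighbourhoods, 7747 (64.8%) had the same direction of sex difference in breeders. Of the 612 at an unadjusted p of 0.05 in non-breeders, 524 (85.6%) did, and 92 (15%) also passed that level in breeders in the same direction, against 519 (4.34%) of all 11957. Of the 43 liver function genes among them, 41 (95.3%) had the same direction and 9 (20.9%) also passed. Over all 516 liver function genes outside X neighbourhoods these were 358 (69.4%) and 34 (6.59%). Of the 16 genes of smallest p, 8 higher and 8 lower, 13 had the same direction and 4 also passed that level, APOC4, RBP5, TMEM200A and SPARCL1. The 3 genes of opposite direction in breeders were AFP, WSB1 and SPATA18. WSB1, a substrate receptor of a ubiquitin ligase, had 22.5, 21.8, 18.4, 19.1 and 25.7 CPM in the females, against 56, 73.8, 49, 13.4, 79.6 and 22.5 CPM in the non-breeding males. Genes vary together within a liver and are not independent, so these shares carry no test. Both comparisons also came from 1 fit with a shared spread per gene, so a gene of small spread is favoured in both. According to the study's methods the non-breeders were litter siblings of the breeders. The difference between the sex difference of non-breeders and that of breeders was tested for each gene, and 0 of 12306 passed (edgeR), with 228 (1.85%) at an unadjusted p of 0.05 and 1 called by DESeq2. In breeders alone 6 genes passed the threshold (0.0488%), 2 of them outside X neighbourhoods (0.0167%).

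Some of the largest differences among the livers of workers did not follow sex. Of genes with a mean of at least 10 CPM, CYP2E1 had the largest spread within the sexes. It encodes the ethanol- and acetone-oxidizing cytochrome P450 of the hepatocytes around the central vein. It had 14757, 14.4, 6.60, 15907 and 5026 CPM in the females, against 11725, 4966, 3027, 12.5, 7754 and 8461 CPM in the males. Female non-breeders 2 and 3 and male non-breeder 4 held at most 14.4 CPM and every other liver held at least 3027 CPM, a range of 2412-fold from lowest to highest. The low values rested on 150 to 230 counts and were not gaps in detection. In breeders CYP2E1 lay between 0.637 and 845 CPM in females (median 121) and 8.14 and 2460 CPM in males (median 83.6).

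The genes whose log2 levels followed CYP2E1 most closely over the 11 livers were looked up after this was seen, among genes with a mean of at least 10 CPM. They were ranked by the absolute correlation of log2 CPM over 11 libraries, and since the livers fell into 2 sets this ranks genes and tests nothing. UMOD, uromodulin, came first, with 56.7, 5.69, 3.69, 63.3 and 35.5 CPM in the females and 72.6, 81.1, 19.6, 3.96, 73.2 and 56 CPM in the males. DHRS7, a short-chain dehydrogenase of the endoplasmic reticulum, ran against it, with 86, 283, 263, 125 and 114 CPM in the females and 82.3, 118, 93.7, 279.9, 98.1 and 109 CPM in the males. CD4, in liver a marker of macrophages and T helper cells, had 142, 278, 404, 78.1 and 143 CPM in the females and 143, 160.1, 180.4, 378, 131 and 154 CPM in the males. NOX1, a NADPH oxidase, had 16.4, 76.1, 48.2, 12.8 and 17.8 CPM in the females and 17.8, 24.9, 25.2, 42.8, 18.3 and 11 CPM in the males. For UMOD, DHRS7, CD4 and NOX1, as for CYP2E1, the same 3 livers held the 3 most extreme values. EPHA5, an ephrin receptor below that level, had 0, 14.5, 13.8, 0 and 0 CPM in the females and 0, 0.259, 0.193, 18, 0 and 0 CPM in the males, with 232, 313 and 308 counts in these 3 livers and 0 to 5 counts in the other 8.

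Several genes with a role in liver sex or of large spread followed the same animals in part. CUX2 had 83.2, 9.63, 23.8, 57 and 59.9 CPM in the females and 52.6, 59.7, 70.1, 19.9, 84.9 and 51.9 CPM in the males, lowest in the same 3 livers. ESR1 had 2.99, 29.1, 33.5, 2.25 and 3.65 CPM in the females and 5.18, 3.88, 11.4, 5.66, 1.71 and 3 CPM in the males. Female non-breeders 2 and 3 held its top values. The log2 fold change of ESR1 (1.48 ± 0.76) thus rested on 2 of the 5 females, and without female non-breeder 3 it was 0.87. C2orf40, a secreted growth-restraining peptide also called ECRG4, had 3.82, 96.3, 65.2, 4.43 and 4.92 CPM in the females and 1.42, 18, 82.3, 168, 4.98 and 1.95 CPM in the males, highest in the 3 livers and male non-breeder 3. Among breeders, female breeder 6 alone held the highest values of ESR1 (59.0 CPM) and C2orf40 (223 CPM) and the lowest of CYP2E1 (0.637 CPM), CUX2 (8.59 CPM) and UMOD (0.557 CPM). The 3 low non-breeders were 4, 3.7 and 3.7 years old. The non-breeders with high CYP2E1 were 2.4, 3.1 and 3.9 years old (females) and 3.4, 2.7, 4.1, 3.8 and 2.8 years old (males). The age slope of CYP2E1 beside sex was -1.67 log2 units per year (edgeR unadjusted p = 0.27, adjusted p = 0.811).

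**Figure D5:**
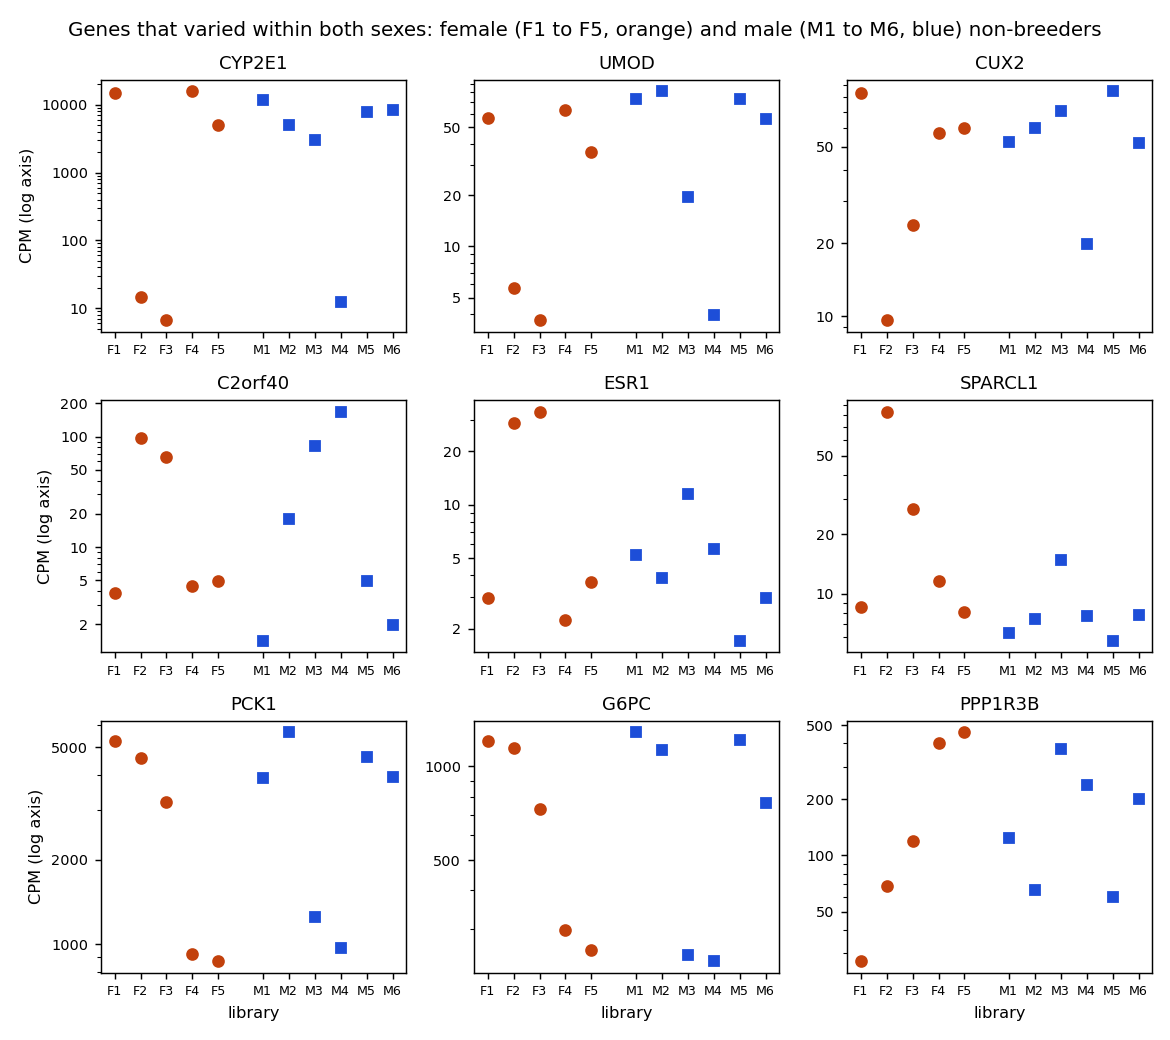
Levels of 9 genes in each non-breeder liver, in CPM on a log axis, 1 point per library, females F1 to F5 on the left (orange circles) and males M1 to M6 on the right (blue squares). In the upper row F2, F3 and M4 are the lowest libraries for CYP2E1, UMOD and CUX2. In the lower row F4, F5, M3 and M4 are the lowest libraries for PCK1 and G6PC.

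A second set of genes divided the animals differently, and again across the sexes. PCK1, which commits oxaloacetate to gluconeogenesis, had 5282, 4582, 3207, 927 and 872 CPM in the females and 3887, 5673, 1246, 970.3, 4623 and 3922 CPM in the males. G6PC, the phosphatase that releases glucose from the hepatocyte, had 1212, 1145, 729, 297 and 258 CPM in the females and 1291, 1129, 248, 236, 1219.8 and 763 CPM in the males. Female non-breeders 4 and 5 and male non-breeders 3 and 4 held the 4 lowest values of both genes, with at most 1246 CPM of PCK1 in these 4 and at least 3207 CPM in the other 7. The same 4 livers were the 4 lowest for TAT, a glucocorticoid- and glucagon-induced aminotransferase, for PPARGC1A, a coactivator of the fasting response, for the mitochondrial carrier SLC25A25 and for SDS, which makes pyruvate from serine. SDS had 74.6, 44, 2.33, 0.385 and 0.264 CPM in the females and 10.8, 32.9, 0.899, 0.641, 35.4 and 1.46 CPM in the males. PPP1R3B, which directs glycogen synthesis, was highest in these 4 livers, with 27, 68.3, 119.5, 403 and 461 CPM in the females and 124, 65.6, 374, 239.9, 59.9 and 202 CPM in the males.

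Age was tested as a slope within the 11 non-breeders beside sex. Of 11996 genes, 0 passed the threshold (edgeR) and 824 passed an unadjusted p of 0.05 (6.87%). The genes of smallest p included RET, the receptor of glial-derived growth factors, at -0.94 log2 units per year, the stem cell factor receptor KIT at 0.84 and the nuclear pore gene NUP188 at 1.17, and further LBX2 at 1.79, KIAA1919 at 0.74 and AGTPBP1 at -0.59 (edgeR adjusted p 0.684 or above). KIT and RET levels were between 1.81 and 24.9 CPM. Mean ages were 3.42 ± 0.669 years in females (SD, n = 5) and 3.42 ± 0.564 years in males (SD, n = 6), so age was balanced between the sexes.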

How the data were processed

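Liver RNA of 23 naked mole-rats was sequenced from unstranded poly(A) libraries, and per the study's methods reads were aligned with STAR 2.4.1d, reads with several matches were discarded, and genes were counted with HTSeq. The authors deposited raw counts for 16339 gene symbols, 803 of which had no count in any library. Without strand, overlapping and antisense genes cannot be told apart. Date entries in place of symbols, 0.112% to 0.181% of the counts, are not named.

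The filterByExpr function, at a count of 10 and a total of 15, left 12306 genes. They were fitted with the quasi-likelihood test of edgeR 4.0.16 in R 4.3.3, with TMM scaling, 1 mean for each of the 4 groups of all 23 libraries and Benjamini-Hochberg adjustment over all 12306 genes (threshold 0.05). CPM are scaled by TMM, and single log2 levels use a prior count of 2. SE is the log2 fold change over the root of F, and intervals are 95%. The age slope was fitted in the 11 non-breeders. The script was tested on simulated data. Library totals set the counting error, which for most genes was below the spread between animals (square root of the common dispersion 0.289). The labels do not say that the animals are unrelated, while the p-values take every library as an independent animal. The spread behind the p-values of the sex difference was estimated from all 23 libraries, breeders included.

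The RefSeq table of assembly H.glaber_assembly_v1.0 served for gene order only. Members and lists were chosen with earlier results of these data known. Named were every gene past the threshold, the 8 higher and 8 lower of smallest p outside X neighbourhoods, up to 2 of smallest p of each list, a fixed set of liver genes, the genes of largest spread within the sexes and the genes of smallest p for age, some left out for length, and a few genes of the rule are not reported here. Genes that followed CYP2E1 or PCK1, and other members of lists, were chosen after their values were seen. Alternatives were RLE scaling, no filter, DESeq2 1.42.0, limma 3.58.1 voom, a threshold of 0.01, age as covariate, only the 11 libraries, and each library left out in turn.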

Additional observations from a re-analysis of the deposited data

Results flagged for a closer look

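Of 236 levels of named genes, list means and library measures examined for a sample far from the others of its sex, 18 passed the 95% limit of Dixon's test, which chance passes in about 1 of 20 groups (5 or 6 libraries a group). Male non-breeder 3 accounted for 13 of them, 7 high and 6 low. Its log2 CPM was high for APOM (9.732), MGST3 (8.643), KMO (8.74) and SPARCL1 (3.903) and low for SCD (8.881) and CPS1 (8.249). Its mean log2 CPM was high for the cholangiocyte markers (2.959) and low for cholesterol synthesis (5.29), for steroid receptors and steroid-converting enzymes (5.508) and for the X-linked genes with a Y copy or escape from inactivation (4.28). MTRNR2L4 took 11.94% of its counts, its first principal component was 100.6 and its mean correlation with the other non-breeders was 0.9072. The other 5 values were spread over 3 libraries. Female non-breeder 2 was low for PITPNA (5.989) and CYP7A1 (1.208), female non-breeder 3 was low for APOA4 (5.355) and for the mean of the rodent sex-biased genes (5.453), and male non-breeder 4 was low for CUX2 (4.322), all in log2 CPM.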

How the results depend on the processing

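The 4 calls stood under RLE scaling, no filter, limma voom, a threshold of 0.01, age as covariate and each left-out library, and 0 genes outside X neighbourhoods passed in those settings (edgeR or limma). With only the 11 libraries 2 genes passed, while the log2 fold change of EIF2S3 was then -1.03 with an adjusted p of 0.062 and the log2 fold change of PNPLA4 -0.65 with one of 0.313. DESeq2 called 6 genes, 1 of them outside X neighbourhoods (DSCAML1, named for this call, log2 fold change 4.40, adjusted p = 0.0321), and 1 gene for the difference between non-breeders and breeders. Over the left-out libraries the calls stayed at 4, at 0 outside X neighbourhoods, at 0 for that difference and at 0 for the age slope, while genes outside X neighbourhoods at an unadjusted p of 0.05 ranged between 362 (without male non-breeder 3) and 867 (without female non-breeder 4 or male non-breeder 2). Without 1 library the sign of 5 small log2 fold changes turned, with ranges of -0.37 to 0.23 for CYP7A1, -0.19 to 0.046 for CYP7B1, -0.40 to 0.41 for HAMP, -0.071 to 0.40 for IGF1 and -0.17 to 0.10 for SULT2A1, and the cause was not tested. No paired analysis was possible because the replicate numbers only name the libraries and pair no animals. Depth did not limit the genes named above a few CPM, while intervals of low genes were wide.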
